A study of Mus musculus with 16 samples.

Results

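The occupancy of 5 pluripotency genes, Pou5f1, Nanog, Klf4, Sall4 and Lin28a, was described by chromatin immunoprecipitation with sequencing (ChIP-seq) in neural progenitor cells derived from mouse embryonic stem cells. Each gene was represented by 1 interval of the mm9 genome, and a window belonged to a gene by its position, whatever its signal: Pou5f1 chr17:35639000-35651000, Nanog chr6:122654000-122668000, Klf4 chr4:55537000-55549000, Sall4 chr2:168570000-168597000 and Lin28a chr4:133556000-133578000. The intervals were 12 to 27 kb long and held 219 of the 1459926 windows of 50 bp listed in the 9 ChIP files. All cells came from the V6.5 embryonic stem cell line, went through embryoid bodies for 4 days and were then plated as a monolayer. Untreated progenitors were used for Cbx3 (2 libraries, sets 1 and 2) and for RNA polymerase II (Pol II, 1 library). Progenitors transfected for 72 hours with an siRNA against luciferase (control siRNA) or against Cbx3 (Cbx3 siRNA) were used for Pol II, Med26 and Cdk8, with 1 library per antibody and arm. The arms were therefore compared as single libraries, with no test. The 7 input libraries were not analysed here on their own.

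Pluripotency rests on a small set of transcription factors that activate each other's genes and their own in embryonic stem cells. Pou5f1 (Oct4) and Nanog are core members of this set, Klf4 and Sall4 are zinc finger factors that act with them, and Lin28a is an RNA-binding protein that blocks maturation of the let-7 microRNAs. Pou5f1 and Nanog are silenced as stem cells leave pluripotency, whereas Lin28a is known to persist in early neural progenitors and Klf4 is also used in other cell types. Cbx3 is the heterochromatin protein HP1 gamma, which binds methylated histone H3 and is also found on transcribed genes. Med26 is a subunit of the Mediator coactivator, and Cdk8 is the kinase of Mediator's detachable module. The progenitor label could not be checked against neural genes, because the references used here give no mm9 positions for them.

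The libraries listed between 2721 windows (Med26, Cbx3 siRNA) and 923942 windows (Cbx3 set 1). Each window carries a signal value made by the authors, and the files hold only windows above a minimum, which was 6.01 in both Pol II siRNA libraries and 9.02 in untreated Pol II. Windows up to 200 bp apart were joined into regions. The files do not give the sequencing depth, and signal levels were not compared between antibodies. A signal from every cell at a low level and a strong signal from a few cells cannot be told apart in such pooled material.

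The sequence just before the start site differs between these genes, and 4 of the 5 had an entry in the RefSeq promoter table (build GRCm38.p6). The 250 bases before the outermost start site of each are printed 5′ to 3′ on the gene's strand, to show how unlike the promoters are in CpG content, with every CpG in capitals. They lie at chr17:35505782-35506031 (plus strand) for Pou5f1, chr6:122707239-122707488 (plus strand) for Nanog, chr4:55532476-55532725 (minus strand) for Klf4 and chr4:134018817-134019066 (minus strand) for Lin28a, all in GRCm38.p6 and thus not comparable with the mm9 positions of the windows.
Pou5f1: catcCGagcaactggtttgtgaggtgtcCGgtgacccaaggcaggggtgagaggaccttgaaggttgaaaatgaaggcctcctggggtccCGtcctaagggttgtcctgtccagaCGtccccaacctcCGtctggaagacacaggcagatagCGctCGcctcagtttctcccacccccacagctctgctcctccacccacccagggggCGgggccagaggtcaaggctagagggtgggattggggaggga
Nanog: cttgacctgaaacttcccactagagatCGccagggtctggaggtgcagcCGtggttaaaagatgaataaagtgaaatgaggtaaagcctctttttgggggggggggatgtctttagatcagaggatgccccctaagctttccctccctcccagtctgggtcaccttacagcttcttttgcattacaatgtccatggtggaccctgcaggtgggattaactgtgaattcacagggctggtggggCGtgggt
Klf4: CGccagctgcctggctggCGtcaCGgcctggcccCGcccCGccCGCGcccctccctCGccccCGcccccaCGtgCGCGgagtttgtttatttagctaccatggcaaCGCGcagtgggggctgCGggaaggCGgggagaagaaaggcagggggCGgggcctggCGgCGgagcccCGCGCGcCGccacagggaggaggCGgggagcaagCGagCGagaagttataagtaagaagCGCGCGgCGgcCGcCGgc
Lin28a: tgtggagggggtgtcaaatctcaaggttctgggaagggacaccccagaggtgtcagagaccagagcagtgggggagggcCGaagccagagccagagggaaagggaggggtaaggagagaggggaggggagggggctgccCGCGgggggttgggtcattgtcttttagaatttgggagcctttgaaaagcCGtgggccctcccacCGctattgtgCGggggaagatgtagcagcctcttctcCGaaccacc

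Klf4 had 32 CpG in these 250 bases, a count that 4.58% of the 32851 promoters in the table reached. Pou5f1 had 8, Lin28a 7 and Nanog 3, against a median of 6. The GC box GGGCGG, searched on both strands, occurred 4 times before Klf4 and 1 time before Pou5f1, and in 32.7% of all promoters. The octamer core ATGCAAA, read on the other strand as TTTGCAT, was found before Nanog alone among the 4, starting 75 bases before the start site, and in 4.12% of all promoters. It was followed after 1 base by the Sox core CATTGT, read as ACAATG, starting 67 bases before the start site. This Sox core also occurred before Lin28a and in 10.7% of all promoters. A composite octamer and Sox element in the Nanog promoter is a known target of Pou5f1 and Sox2 in stem cells. TATAAA was found in none of the 4 and in 12.4% of all promoters. Such matches are letters only and do not show binding.

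Under control siRNA, Pol II was listed at all 5 genes. It was listed at 4 genes under Cbx3 siRNA, with Nanog missing, and at 2 genes, Klf4 and Lin28a, in untreated cells. Med26 was listed at none of the 5 genes in either arm. Cdk8 appeared as single windows only, at Lin28a under control siRNA and at Sall4 and Lin28a under Cbx3 siRNA. Cbx3 set 1 was listed at all 5 genes and set 2 at 4, with Klf4 missing.

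**Figure D1:**
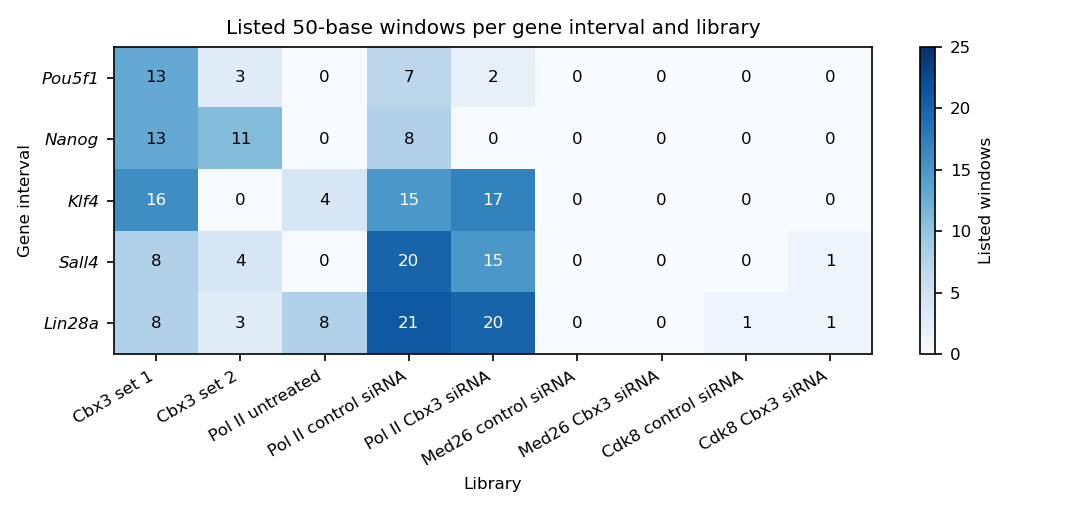
Number of listed 50-base windows (cell value and color) in each gene interval (rows) and ChIP library (columns). Both Med26 columns hold 0 throughout. The Pol II columns hold 0 at Pou5f1, Nanog and Sall4 in untreated cells and at Nanog under Cbx3 siRNA. They reach 21 at Lin28a under control siRNA.

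As background, the genome was cut into tiles of 14 kb, the middle interval length, without regard to genes. A Pol II window was present in 6.64% of these tiles under control siRNA, in 7.00% under Cbx3 siRNA and in 3.66% in untreated cells. Med26 was present in 2.80% of tiles under control and 0.904% under Cbx3 siRNA, and Cdk8 in 2.81% and 3.06%. Cbx3 set 1 was present in 80.0% of tiles and set 2 in 43.3%. Under control siRNA the Pol II share was 9.71% for tiles of 22 kb, the length of Lin28a, and 11.5% for tiles of 27 kb, that of Sall4. Pol II was listed at a larger share of the 5 genes than of the tiles. As the intervals were placed at genes and the tiles were not, this cannot set these genes apart from other genes. The absence of Med26 is what most tiles show, and a listing in Cbx3 set 1 is common at this length.

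By highest and summed signal, Pou5f1 carried the weakest Pol II of the 5 genes under control siRNA. A single block of 7 adjoining windows, chr17:35642751-35643100, had signals from 7.77 to 11.0, and the highest window lay above only 21.6% of all windows in that library. No Pol II window was listed here in untreated cells. Under Cbx3 siRNA none of the 7 windows was listed, and 2 isolated windows appeared nearer the low end of the interval, chr17:35640801-35640850 with 7.70 and chr17:35641301-35641350 with 6.71. The siRNA arms thus shared no Pol II window at Pou5f1. The block lay 3.75 kb from the low end of the interval, on the side of the gene's start, since Pou5f1 is on the plus strand.

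At Nanog, Pol II was listed in control cells alone. Under control siRNA, 8 adjoining windows at chr6:122657551-122657950 had signals from 6.67 to 15.3, with the 3 highest at the low end of the block. The highest lay above 44.1% of all windows in that library, so every Nanog window was below the library median. Neither the Cbx3 siRNA library nor the untreated library listed any Pol II window in the Nanog interval. On the scale inferred from the spacing of the values, 1 read corresponds to 1.10 units, so the highest Nanog window held about 13.9 reads (exact Poisson 95% interval 7.57 to 23.3, counting error only). The corresponding highest window at Pou5f1 held about 9.96 reads (4.77 to 18.3).

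Klf4 carried the strongest Pol II of the 5 genes in both siRNA arms. The highest window, chr4:55545651-55545700, was the same in all 3 libraries, with a signal of 18.6 in untreated cells, 31.3 under control siRNA and 23.5 under Cbx3 siRNA. The control window lay above 87.9% of the windows in its library, and the Cbx3 siRNA window above 82.6%. Untreated cells listed 4 windows, control cells 15 and Cbx3 siRNA cells 17. In the 11 windows listed in both siRNA arms, 10 were lower after Cbx3 siRNA, with a median log2 difference of -0.45 (range -0.59 to 0.10). The outline of the block also differed. Cbx3 siRNA cells listed 6 further windows on the high side, chr4:55545901-55546200, with signals from 7.17 to 10.8, which control cells did not list. They lacked 3 windows inside the block, chr4:55545401-55545550, where control signals were 18.7 to 20.3 and the listed neighbors after Cbx3 siRNA had 14.1 and 17.2. These 3 windows had listed neighbors on both sides. Genome-wide, 1942 of the 41713 windows listed in control cells alone (4.66%) had a listed Cbx3 siRNA window within 150 bases on both sides. At Nanog and Pou5f1 no such neighbors were listed. Of the 41713 windows, 17.5% were above the control median signal, as the 3 Klf4 windows were. The share with such neighbors among those stronger windows was not determined.

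Sall4 was listed with Pol II only in transfected cells. Control siRNA gave 20 windows and Cbx3 siRNA 15, all between chr2:168590651 and 168593000, the last part of the interval. The highest control window, chr2:168592551-168592600, had 18.6 under control siRNA and 12.3 under Cbx3 siRNA. Of the 7 windows listed in both arms, 6 were lower after Cbx3 siRNA, with a median log2 difference of -0.23 (range -0.60 to 0.43). Most windows were listed in 1 arm alone, 13 in control cells and 8 in Cbx3 siRNA cells, and the signals of the former reached 11.7 and of the latter 12.3. Untreated cells listed no window in the Sall4 interval. The untreated list was shorter as a whole, with 34855 windows against 116001 under control siRNA. Genome-wide, 44.3% of control Pol II regions were listed in untreated cells.

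Lin28a held Pol II at both ends of its interval, and the ends differed in opposite directions between the arms. At the high end, chr4:133573551-133576100, the highest windows had 21.8 in untreated cells, 24.3 under control siRNA and 15.0 under Cbx3 siRNA. All 6 windows listed in both arms there were lower after Cbx3 siRNA, with a median log2 difference of -0.57, and 3 of them were lower by more than 1.5-fold. At the low end, chr4:133556551-133557050, the highest windows had 15.5, 12.4 and 17.4 in the same order. Here 4 of 5 shared windows were higher after Cbx3 siRNA, with a median of 0.42, and none passed 1.5-fold. These 5 windows adjoin each other, so they do not count as 5 separate observations. The highest of them after Cbx3 siRNA held about 15.8 reads (exact Poisson 95% interval 8.98 to 25.7, counting error only). Adjoining windows at Klf4 and at the high end of Lin28a are likewise not separate observations. The high end is the side of the gene's start, as Lin28a is on the minus strand. The gene next to Lin28a on the low side is Dhdds in the RefSeq gene table (GRCm38.p6), and which gene the low-end windows belong to was not determined without an mm9 annotation. The median over all 11 shared windows, -0.23, mixes both ends and describes neither.

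**Figure D2:**
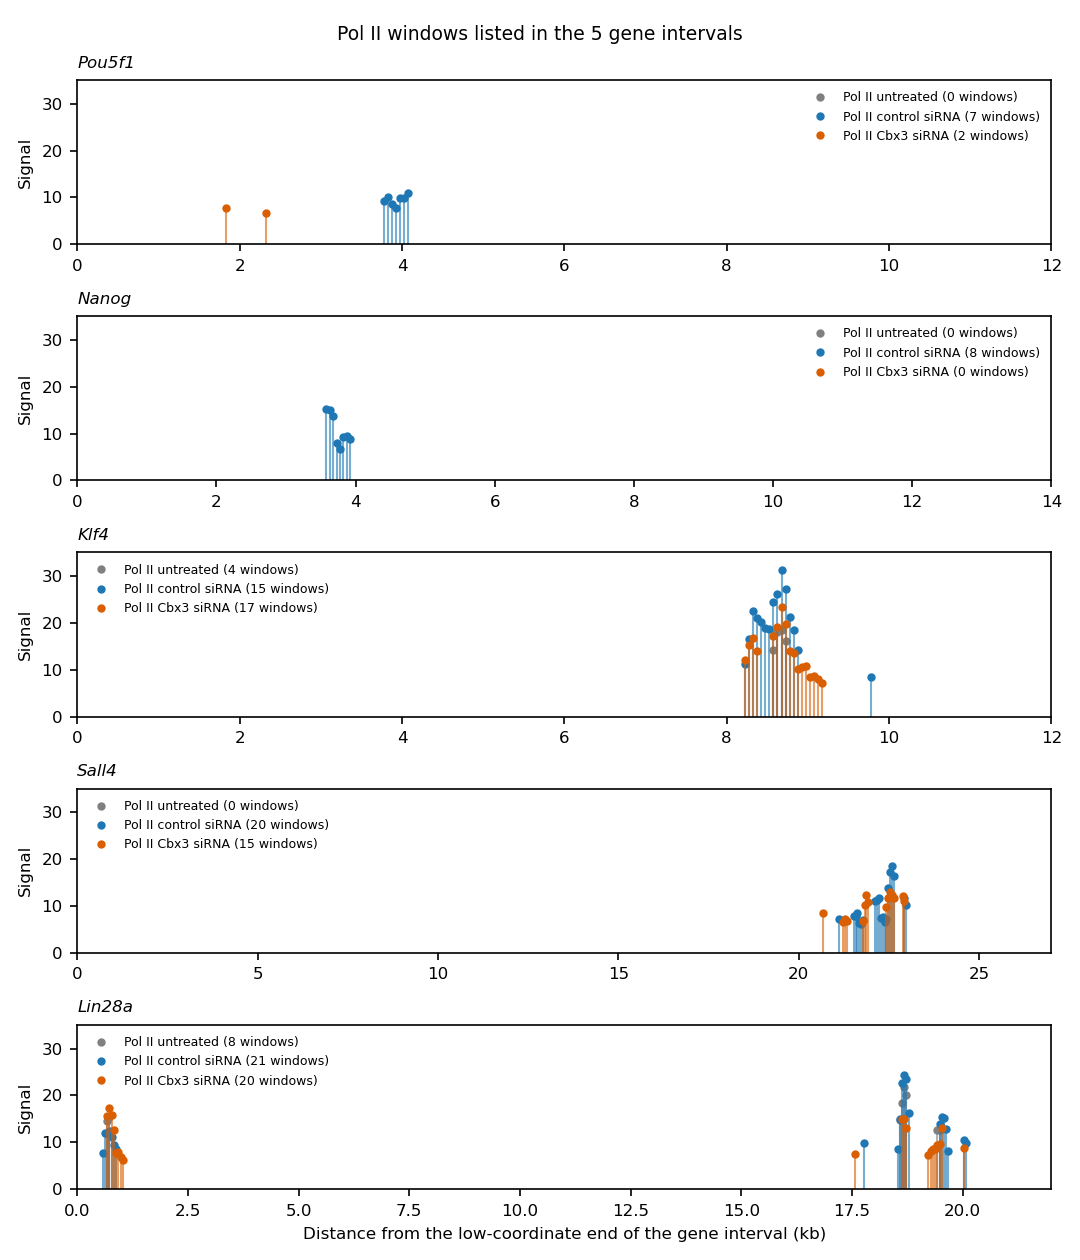
Signal of each listed Pol II window (vertical axis, the authors' units) against its distance in kb from the low-coordinate end of the gene interval, for untreated (gray), control siRNA (blue) and Cbx3 siRNA (orange) cells. Klf4 reaches 31.3 in the control, the Nanog block is present in control cells alone, and Lin28a has clusters at both ends.

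The order of the genes by highest control siRNA signal was Klf4 (31.3), Lin28a (24.3), Sall4 (18.6), Nanog (15.3) and Pou5f1 (11.0). With 1 library, no spread is available to say which neighbors in this order differ. Under Cbx3 siRNA the order was Klf4 (23.5), Lin28a (17.4, or 15.0 at its high end), Sall4 (12.9) and Pou5f1 (7.70), with Nanog not listed. The CpG counts did not follow this order beyond Klf4, since Pou5f1 had more CpG than Lin28a and Nanog. In untreated cells only Klf4 and Lin28a were listed, the 2 genes with the highest control signals. For background, all control regions were cut into 10 classes by highest signal. The share listed in untreated cells was 49.4% in the class of the main Sall4 region. It was 28.8% for Nanog and 4.28% for Pou5f1, and 82.5 and 69.6% for the main regions of Klf4 and Lin28a. Control siRNA exceeded untreated cells by a median of 0.75 (log2) over the 4 shared windows at Klf4. At Lin28a this median was 0.16 over the 5 shared windows of the high end and -0.30 over the 2 of the low end. The genome-wide median between these libraries was not determined, so these values cannot be called particular to the genes. The untreated library has another value per step and a higher lowest listed value, so a gene missing there may have had Pol II that was not listed.

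Over the 5 genes, control cells listed 71 Pol II windows and Cbx3 siRNA cells 54, and 29 of the 71 (40.8%) were listed in both, against 64.0% of all control windows in the genome. Pou5f1 and Nanog account for 15 of the 42 that were not. Of the 29 shared windows, 5 were lower by more than 1.5-fold after Cbx3 siRNA and 0 were higher by that much. Genome-wide, 24.2% of the 74288 shared windows were lower and 2.91% higher by more than 1.5-fold, and the median log2 difference was -0.29. The 5 of 29 were thus not above that background. Relative to the genome-wide median, the log2 difference was -0.16 at Klf4 and 0.06 at Sall4. At Lin28a it was -0.28 at the high end and 0.71 at the low end. By this median, the lower signal at Sall4 did not exceed the general difference between the libraries. The log2 ratio at Sall4 was -0.42 for summed signal and -0.53 for the highest windows. No genome-wide value of these measures was determined.

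**Figure D3:**
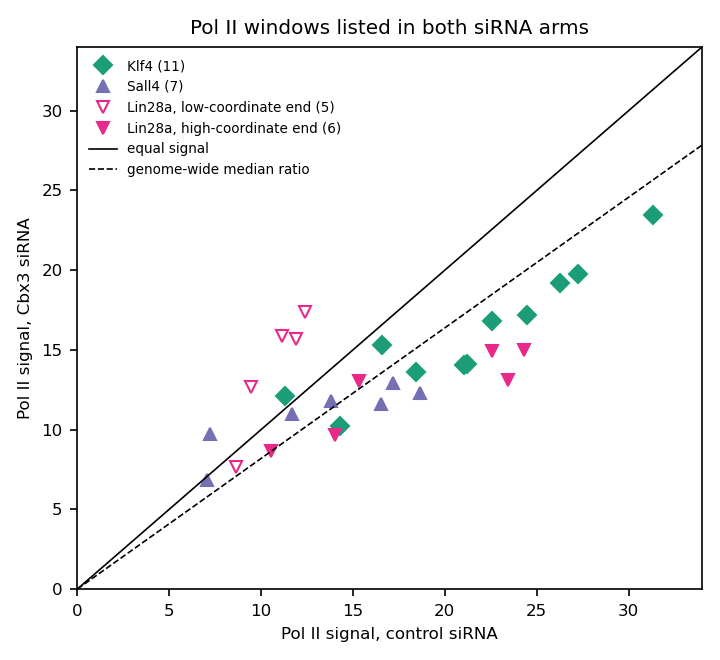
Pol II signal after Cbx3 siRNA (vertical axis) against control siRNA (horizontal axis), in the authors' units, for the 29 windows of Klf4, Sall4 and Lin28a listed in both arms. The 5 Lin28a windows of the low end include 4 above the line of equal signal, while the 6 of the high end all lie below it. Relative to the genome-wide median ratio (dashed), the median of Sall4 turns from -0.23 to 0.06.

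Joined into regions, the 5 genes held 13 Pol II regions under control siRNA, of which 8 overlapped a region listed after Cbx3 siRNA and 5 did not. Genome-wide, 32.1% of the 16073 control regions were not listed after Cbx3 siRNA, so 5 of 13 is close to that share. How often a region was listed again depended strongly on its signal. The Nanog region lay in the fifth of 10 classes of control regions ordered by highest signal, of which 79.6% were listed again. Of the 443 regions of that class with at least 8 windows, as Nanog has, 406 (91.6%) were listed again. The Pou5f1 region was in the third class, of which 30.1% were listed again, and 54 of its 86 regions with at least 7 windows (62.8%). The main regions of Klf4 (eighth class), Lin28a (seventh) and Sall4 (sixth) were listed again, as were 99.6, 97.9 and 93.5% of their classes. The other 3 regions not listed again were single windows at Klf4, Sall4 and Lin28a with signals of 8.43, 7.19 and 9.79. By class alone, Nanog was the only one of the 5 missing regions from a class in which most regions were listed again. In reverse, the genes held 12 regions under Cbx3 siRNA, of which 5 were not listed under control siRNA (2 at Pou5f1, 2 at Sall4 and 1 at Lin28a), against 31.9% of the 16426 Cbx3 siRNA regions genome-wide. Joining windows up to 500 bp apart left 6 regions under Cbx3 siRNA, 2 of them absent from control cells, against 29.8% of 14753 genome-wide. Control cells then had 9 regions, 4 of them absent after Cbx3 siRNA, against 27.7% of 14228 genome-wide.

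**Figure D4:**
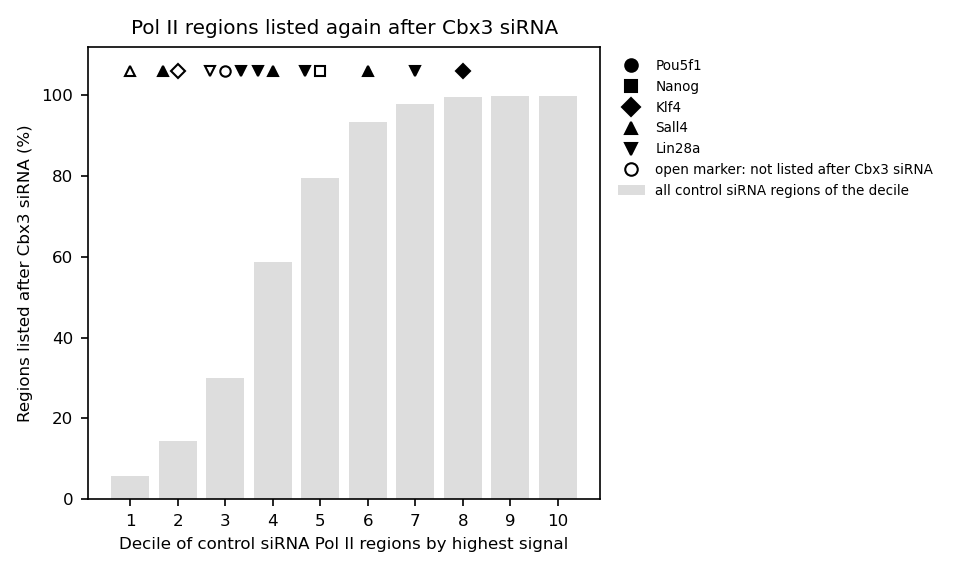
Percentage of control siRNA Pol II regions listed again after Cbx3 siRNA (gray bars) by decile of highest signal, with the 13 regions of the 5 genes marked above their decile (the height of the markers has no meaning). Filled markers were listed again and open markers were not; Nanog in decile 5 is open although 79.6% of its decile was listed again.

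Med26 was absent from the Pol II blocks of these genes, and Cdk8 coincided with Pol II at 1 window. Med26 had 0 windows in the 5 intervals in both arms, and its nearest control window lay 64.05 kb outside the Pou5f1 interval, 68.3 kb outside Sall4, 89.45 kb outside Lin28a, 101.35 kb outside Nanog and 527 kb outside Klf4. Genome-wide, 25.5% of control Pol II regions overlapped Med26 under control siRNA, 44.7% in the class of the Klf4 region and 36.0 and 26.7% in those of Lin28a and Sall4. For regions of the same class with at least as many windows these shares were 56.4, 38.8 and 37.5%, and they were 26.9% for Nanog and 10.5% for Pou5f1. At Klf4 the comparison rests on 381 such regions, of which 215 overlapped Med26. Under control siRNA, Cdk8 had 1 window at Lin28a, chr4:133568001-133568050 with a signal of 12.1. Under Cbx3 siRNA it had 1 at Lin28a, chr4:133556851-133556900 with 8.46, and 1 at Sall4, chr2:168595451-168595500 with 7.36. No Cdk8 window was listed in both arms. Genome-wide, 2461 of the 9960 control Cdk8 windows were listed in both arms, and 11.4% of control Cdk8 regions were listed again after Cbx3 siRNA. With 1 control window, the absence of sharing is thus no result about these genes. The Lin28a window under Cbx3 siRNA was also listed for Pol II in both arms (8.62 under control and 7.63 under Cbx3 siRNA), at the low end of the interval, and the other 2 fell on no Pol II window. Genome-wide, Cdk8 under control siRNA overlapped 7.14% of control Pol II regions. The share for Cdk8 under Cbx3 siRNA, the arm of the coinciding Lin28a window, was not determined.

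Cbx3 was listed near each gene in untreated cells, but its 2 libraries shared windows at Nanog alone. At Nanog, set 1 listed 13 windows in 8 regions and set 2 listed 11 windows in 1 region. They shared 4 windows, 3 of them at chr6:122655251-122655400, where set 1 had signals from 66.2 to 73.5 and set 2 from 31.5 to 35.0. The set 2 region, chr6:122655051-122655800, had a higher signal than 99.2% of all set 2 regions, and the matching set 1 region a higher one than 99.4% of set 1 regions. A window listed in both sets was present in 5.96% of 14 kb tiles. This Cbx3 site lay on the side from which Nanog is transcribed, 1.75 kb below the control Pol II block at its nearest set 2 window. A single set 1 window, chr6:122657251-122657300 with 36.8, lay 0.25 kb from that block.

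At Klf4, set 1 listed 16 windows with signals from 38.4 to 72.1 and set 2 listed none. The set 1 windows formed 4 regions, and 2 of them flanked the Pol II block: chr4:55545101-55545250 and chr4:55545851-55546000 each shared 1 window with control Pol II. The second reaches into the stretch where Pol II was listed after Cbx3 siRNA alone. Pou5f1 had 13 set 1 windows, from 34.9 to 59.8, in 3 regions, and 3 set 2 windows from 8.60 to 15.4 at other places. Of the 2 set 1 regions nearest the low end, chr17:35641051-35641200 lay between the 2 Pol II windows listed after Cbx3 siRNA. The gap was 0.10 kb at the nearest pair. The other region, chr17:35641751-35642100, lay between these windows and the control Pol II block, 0.65 kb from the block. Sall4 had 8 set 1 windows from 34.1 to 47.2 and 4 set 2 windows from 8.73 to 13.1, none shared. Lin28a had 8 from 38.5 to 62.9 and 3 from 10.9 to 15.7, none shared. With set 1 present in 88.9% of tiles of 22 kb and 91.6% of tiles of 27 kb, such listings are common at these lengths. No Cbx3 window of either set coincided with control Pol II at Sall4 or Lin28a. Genome-wide, 39.7% of control Pol II regions overlapped set 1 and 11.8% overlapped set 2. For set 1 the share was 57.6% in the signal class of the main Klf4 region. It was 51.3% in that of Lin28a and 46.3% in that of Sall4.

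**Figure D5:**
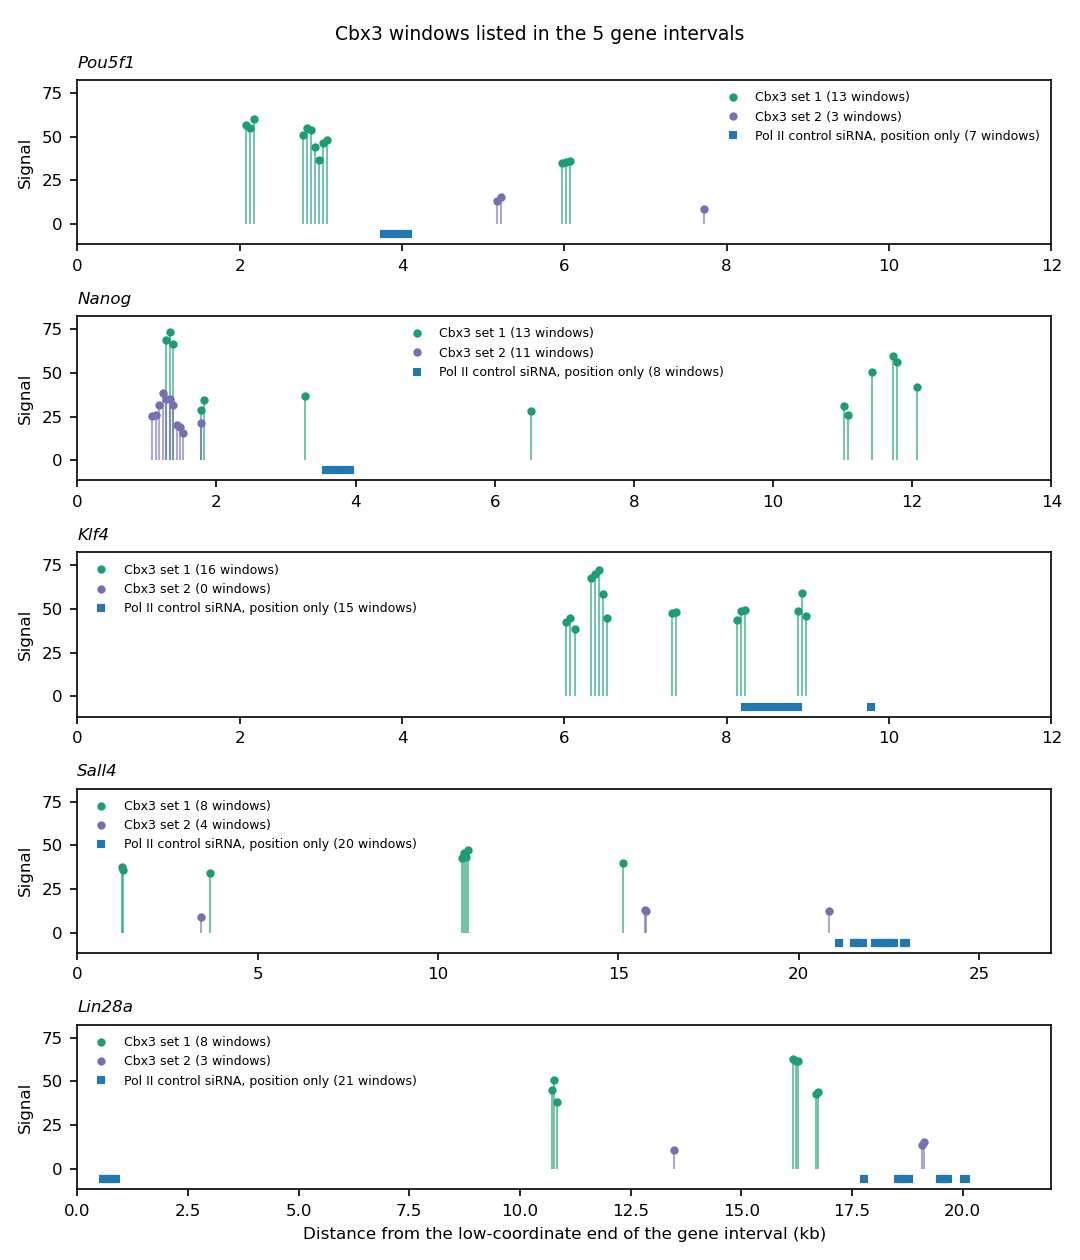
Signal of each listed Cbx3 window of set 1 (green) and set 2 (purple), in the authors' units with another scale in each set, against distance in kb from the low-coordinate end of each gene interval; blue squares mark positions of control siRNA Pol II windows, without their height. The sets coincide at Nanog near 1.3 kb, below the Pol II block, and set 2 lists no window at Klf4.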

How the data were processed

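ChIP-seq files of 9 libraries were used. Reads were aligned with Bowtie to mm9, per the submitters' processing notes; how windows were tested, at what threshold, with which Bowtie version and whether against the inputs is not given in the sources used here. Each deposited file lists windows of 50 bp with a signal value, which the authors made; 99.7 to 100% of the values in 8 libraries, and 87.1% in untreated Pol II, were whole multiples of a library's step (tolerance 0.05 steps). The step was the same in both arms of an antibody (0.022 for Pol II), and arms were compared as deposited. Reading 50 steps as 1 read is an inference from the values.

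Windows inside the 5 intervals were counted, joined at gaps up to 200 bp, and matched between libraries by position. A shared length of 1 bp sufficed for 2 regions to overlap. Log2 differences are medians over windows listed in both libraries, Cbx3 siRNA minus control. Groups came from the sample titles, and each sample is 1 library of a culture not described further. The naming rule took all 5 genes. The 5 genes, their intervals, the lists and the comparisons were chosen with earlier results of these data known, although the intervals themselves are defined by position. Other pluripotency genes were not analysed here, as no mm9 annotation was used. Promoters came from RefSeq (GRCm38.p6). Alternatives covered interval edges, low or single windows, joining, the summary of each difference, tile position and each Cbx3 set. Steps were tested on simulated data. Scripts ran under Python 3.11.15 (scipy 1.17.1, numpy 2.4.6, matplotlib 3.10.9, pandas 2.3.3).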

Additional observations from a re-analysis of the deposited data

How the results depend on the processing

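The window lists limit every statement here: each arm had 1 library, depth is unknown, and 3 windows inside the Klf4 block were missing between listed ones. With intervals extended by 5000 bp on each side, Pol II in untreated cells was listed at 4 genes in place of 2 and control Cdk8 at 2 in place of 1. Shortened by 1000 bp, Cdk8 after Cbx3 siRNA was listed at 1 gene in place of 2. With windows above the library median alone, Pol II was listed at 3 genes under control and at 2 under Cbx3 siRNA, and Cdk8 after Cbx3 siRNA at 0. The Nanog block then had 0 of its 8 control windows. Joining up to 500 bp gave 6 Pol II regions in place of 12 under Cbx3 siRNA and 9 in place of 13 under control. Without single windows Cdk8 was listed at 0 genes in both arms. Cbx3 windows shared by both sets were present at 1 gene. With set 2 alone Cbx3 was listed at 4 genes, and with set 1 alone at 5. Dividing by the genome-wide median ratio turned the Pol II difference to 0.059 at Sall4 and 0.059 at Lin28a. An alternative added after seeing the data, Lin28a without its first 2000 bp, gave -0.57. The cause of these changes was not tested. No paired analysis was possible because no antibody had more than 1 library in an arm.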

Other observations

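Outside the intervals, Pol II was listed near 3 of the genes within 10 kb of their edges in more than 1 library. Below Nanog, a region 0.90 kb from the edge, chr6:122652501-122653100, had 12 windows and a highest signal of 14.0 under control siRNA. Inside it, untreated cells listed 3 windows up to 15.3 and Cbx3 siRNA cells 3 windows up to 10.7, all at chr6:122652751-122652900. The Pol II next to Nanog was therefore listed in all 3 libraries, unlike that inside the interval. A single Cbx3 set 1 window, chr6:122653101-122653150 with a signal of 43.2, adjoined it. Below Sall4, chr2:168566801-168567650 had 10 Pol II windows up to 23.1 under control siRNA, and the same stretch was listed after Cbx3 siRNA with up to 15.8 and in untreated cells with 1 window of 10.3. A Cbx3 set 1 region, chr2:168566751-168567150 with a highest signal of 84.3, overlapped this Pol II stretch. Both Cbx3 sets were also listed beside the stretch at chr2:168568251-168568400. Their highest signals were 65.4 in the wider set 1 region and 32.3 in set 2. One control Cdk8 window of 9.87 was listed there at chr2:168568301-168568350. Atp9a is the next gene on that side in the RefSeq gene table. Below Klf4, chr4:55527751-55528000 had 5 control Pol II windows up to 20.1, and 3 windows up to 17.0 were listed after Cbx3 siRNA. A Cbx3 set 1 region, chr4:55527701-55527900 with a highest signal of 61.6, overlapped this control Pol II region.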
